A study of Mus musculus with 18 samples.

Results

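Collagens and the enzymes that modify them were followed in primary hippocampal cultures of Fibcd1 WT and Fibcd1 KO mice grown on chondroitin sulphate proteoglycans (CSPGs). Genes were taken by name from the deposited expression table: every collagen chain gene and 21 named genes that modify, fold, process or bind collagen. The table gave values for 41 of these genes among its 12012 genes, namely 23 collagens and 18 collagen-modifying genes. Of the 44 collagen genes in the mouse annotation (GENCODE M21), 21 have no value in the table, including Col6a2, Col6a3, Col4a3, Col4a4, Col8a1, Col14a1 and Col9a1. Of the modifying genes, the names Leprel1, Loxl2 and Pcolce were not found, and other names of these genes were not searched.

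Fibcd1 encodes a membrane receptor with a fibrinogen-like domain that binds acetylated compounds. CSPGs are matrix proteins that carry long sulphated sugar chains. The KO mice carry the constitutive Fibcd1tm1Lex allele on a C57BL/6J background, so every cell type of the culture lacks the gene, and the genotypes are labelled wt and fibcd1 -/-. Hippocampi were taken at E18.5 and plated on a CSPG coating in both groups, and RNA was collected a few days later. The table holds 4 libraries of WT CSPG and 4 of KO CSPG, named replicates A to D in each. The comparison of these groups asks how collagen-related transcripts differ with Fibcd1 on a CSPG coating, and it cannot show an effect of the coating itself. The series labels 18 libraries, and the other 10 were not analysed here. These include a WT CSPG replicate E.

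Collagens are secreted matrix proteins built of chains that wind into a helix. Prolyl and lysyl hydroxylases modify the chains in the endoplasmic reticulum, galactosyltransferases add sugars to hydroxylysine, and the chaperone Serpinh1 (HSP47) holds the folded helix. Outside the cell, proteases such as Bmp1 trim the ends and lysyl oxidases cross-link the fibrils. In brain, fibrillar collagens I and III are best known from the meninges and vessel walls, collagen IV from the basement membranes of vessels, and SPARC is a collagen-binding protein secreted by glia.

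Reads over the genes of the table numbered 10099564 to 11174615 per library in WT CSPG and 10541445 to 11647202 in KO CSPG. Values are normalized counts, that is, read numbers scaled by each library's size factor. Fibcd1 had 54.3, 70.4, 60.1 and 182 normalized counts in WT CSPG replicates A to D and 0.970, 0.932, 7.16 and 4.74 in KO CSPG replicates A to D. Neuron markers were all present in the cultures, which are labelled as neurons, and so were all 13 markers of astrocytes and radial glia, 9 of 13 of microglia and 10 of 11 of the oligodendrocyte lineage. The summed Y-linked genes were 1557 to 1935 normalized counts in WT CSPG and 878 to 1092 in KO CSPG, and 91.2% of the variance of this sum lay between the genotypes. The Y-linked signal and the genotype therefore cannot be told apart in these libraries. In bulk cultures, fewer cells of a type and less RNA per cell cannot be told apart either.

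Promoter sequence is shown for the pair of fibrillar collagen genes with a RefSeq promoter whose values dropped together in the same libraries, as described with the spread between libraries. The stretches come from the RefSeq promoter set on GRCm38.p6, limited to bases that lie in no annotated exon, on the plus strand and written 5′ to 3′. Capitals mark matches on either strand to the letters of 3 common promoter motifs. These are TATAAA for the TATA box, CCAAT for the binding site of NF-Y and GGGCGG for the GC box. The matches printed do not overlap each other. Col1a2 on chr6:4505370-4505492, from 248 to 126 bases before the RefSeq start of transcription, and Col3a1 on chr1:45311288-45311537, the 250 bases before the start, read as follows.
Col1a2: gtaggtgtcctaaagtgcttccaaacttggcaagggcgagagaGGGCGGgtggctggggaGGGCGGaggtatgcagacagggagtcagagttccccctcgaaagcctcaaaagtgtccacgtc
Col3a1: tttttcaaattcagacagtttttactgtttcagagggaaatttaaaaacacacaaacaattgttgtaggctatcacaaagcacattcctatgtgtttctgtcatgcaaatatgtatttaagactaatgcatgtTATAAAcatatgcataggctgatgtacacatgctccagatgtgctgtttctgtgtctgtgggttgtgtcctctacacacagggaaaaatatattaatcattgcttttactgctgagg

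The printed Col1a2 stretch holds GC boxes 205 and 188 bases before the start, and that of Col3a1 holds a TATAAA match 117 bases before it. The stretches thus share none of the 3 motifs, but that of Col1a2 covers only 123 bases of its window. The full Col1a2 window also holds a CCAAT match, which that of Col3a1 lacks. By the table's coordinates the Col1a2 stretch lies inside the gene, which starts at chr6:4504814. Promoters were given for 28 of the 41 genes, in 31 windows of 250 bases. A GC box match lay in 20 of the 31 windows (64.5%), against 32.7% of all 32851 promoter windows. A CCAAT match lay in 12 (38.7%, against 33.8%) and TATAAA in 4 (12.9%, against 12.4%), the windows of Col3a1, Col11a2, Plod1 and Crtap. The 31 windows belong to genes with a value in the table, whereas the 32851 windows were not limited to such genes. Some genes also have several windows, and Colgalt1 counts more than once in the GC box share. The sets are therefore unlike, the differences in share were not tested, and no enrichment in collagen-related genes is read from them.

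Levels of different genes were compared per kilobase of the gene length in the table, as the mean of all 8 libraries. The 6 highest levels were all those of modifying genes. P4hb (protein disulfide isomerase, the beta subunit of prolyl 4-hydroxylase) had the highest level at 949 normalized counts per kilobase, followed by Sparc at 414, Serpinh1 at 332, Colgalt1 (a collagen galactosyltransferase) at 226 and Bmp1 at 188. The most abundant collagen transcript was Col9a3, a chain of collagen IX, which decorates the surface of other fibrils, at 125. Collagen IV followed, with Col4a1 at 89.8, Col4a2 at 67.1 and Col4a5 at 56.0. Col16a1 had 47.8, and the lowest of the 41 genes was Col27a1 at 5.25.

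**Figure D1:**
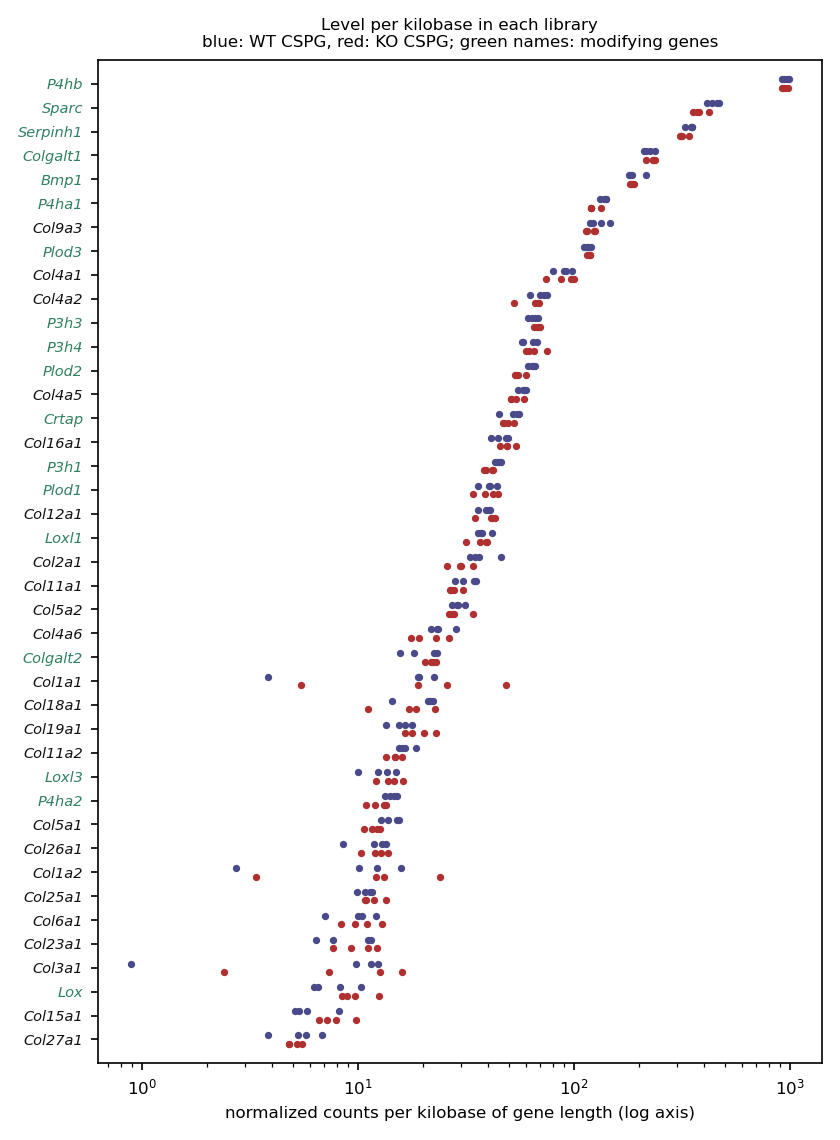
Normalized counts per kilobase of gene length (log axis) for the 41 genes, with a point for each library, WT CSPG in blue and KO CSPG in red, and names of modifying genes in green. P4hb sits highest at a mean of 949 and Col27a1 lowest at 5.25, and the points of Col1a1, Col1a2 and Col3a1 are the most widely scattered.

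Of the 41 genes, 1 differed between KO CSPG and WT CSPG at an adjusted p under 0.05 in limma's test with Benjamini-Hochberg adjustment over all 12012 genes. This was Sparc, which was lower in KO CSPG. Among all genes of the table, 346 passed (2.88%), 131 higher and 215 lower in KO CSPG (1.79% lower). With upper-quartile scaling the same test called 182 higher and 178 lower. No collagen gene passed (0 of 23), and 1 of 18 modifying genes did. At an unadjusted p under 0.05, there were 9 of the 41 genes (22.0%), against 16.2% of the table: 5 collagens (Col19a1 and Col15a1 above 0, Col2a1, Col5a1 and Col11a1 below) and 4 modifying genes, all below 0 (Sparc, Plod2, P4ha1 and Serpinh1). The 4 values of each group did not overlap for 3 of the 41 genes (7.32%), Col5a1, Plod2 and P3h1, against 9.22% of all genes. The log2 fold change was above 0 for 18 genes and below 0 for 23, with a median of -0.02, beside 0.00 over all genes.

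The shares called and without overlap were near or below those of the whole table. The share at an unadjusted p under 0.05 was somewhat higher, and this difference was not tested. The precision differed between genes. The 95% interval of the log2 fold change lay within ±0.5 for 32 of the 41 genes, and for 3 genes (Col1a1, Col1a2 and Col3a1) it reached past ±1.

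**Figure D2:**
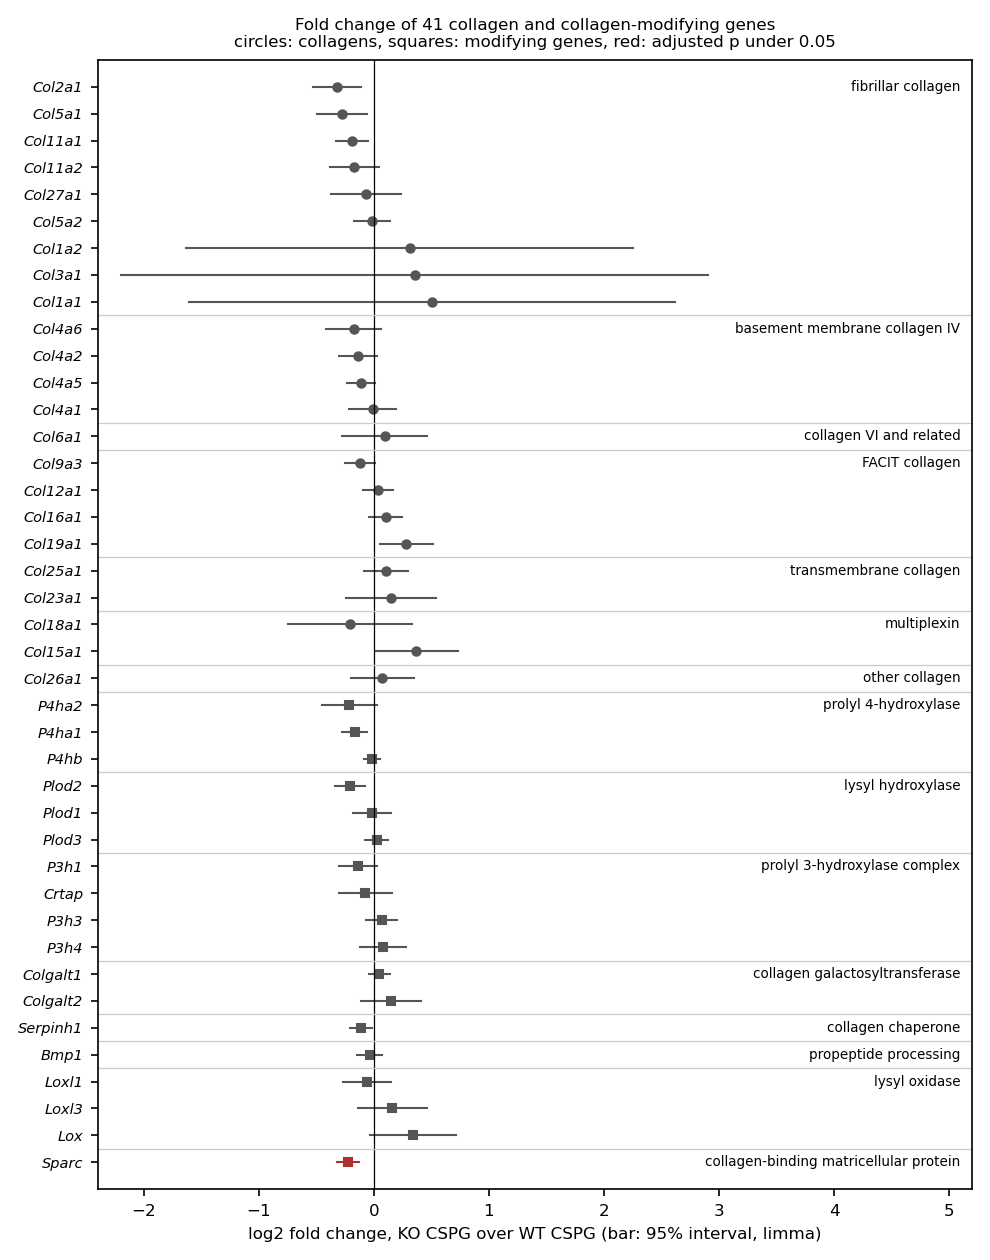
Log2 fold changes (KO CSPG relative to WT CSPG) of the 41 genes, each with its 95% interval from limma, grouped by collagen class and enzyme role (circles are collagens, squares are modifying genes, red marks an adjusted p under 0.05). Sparc alone is red, at -0.22, and the intervals of Col1a1, Col1a2 and Col3a1 are the widest.

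Sparc (ENSMUSG00000018593, chr11:55394500-55423183, minus strand, mm10) encodes a matricellular protein that binds collagen fibrils, and it had the lowest adjusted p of the 41 genes. It had 1572, 1739, 1778 and 1658 normalized counts in WT CSPG replicates A to D, and 1430, 1591, 1354 and 1413 in KO CSPG replicates A to D. The groups met at their edges, since KO CSPG replicate B lay just above WT CSPG replicate A. Mean Sparc was 1687 ± 91.5 for WT CSPG and 1447 ± 101 for KO CSPG (SD, n = 4 each). Sparc fell by 0.22 on the log2 scale in KO CSPG (SE 0.05, 95% interval -0.32 to -0.12, adjusted p = 0.0108), a drop of 14.3%. Leaving out any 1 library kept the call, with log2 fold changes between -0.27 and -0.19. The call ended without a trend in the variance (adjusted p = 0.158), with both C libraries left out (-0.16, adjusted p = 0.148) and with the Y-linked sum as a covariate (-0.59, adjusted p = 0.126).

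Sparc is made by several glial types, so their marker sums are given here. Astrocyte and radial glia markers summed to 54655 to 63391 normalized counts in WT CSPG and 60399 to 65696 in KO CSPG. Among these 13 genes only Nes (nestin, an intermediate filament of progenitors) passed, lower in KO CSPG at 1096 ± 25.3 against 1273 ± 50.8 (SD, n = 4 each), -0.22 on the log2 scale (adjusted p = 0.00192). Of the 13 genes 8 were above 0, with a median log2 fold change of 0.09, and of the 5 at an unadjusted p under 0.05 the other 4 (Aqp4, Gja1, Glul and Hes5) were above 0. Oligodendrocyte lineage markers summed to 1401 to 1837 in WT CSPG and 2052 to 2260 in KO CSPG, without overlap. Of these 10 genes, Olig1 and Olig2, transcription factors of that lineage, passed, with log2 fold changes of 0.59 and 0.79 (adjusted p = 2.33e-07 and 1.2e-06). Microglia markers summed to 2518 to 3079 in WT CSPG and 2716 to 3336 in KO CSPG, and 0 of 9 passed in limma's test, with 4 at an unadjusted p under 0.05, all higher. The part of these cell types in the Sparc difference was not tested.

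Hydroxylases act on the chains before they fold, and the chaperone binds the folded helix. All 3 prolyl 4-hydroxylase genes of the set had log2 fold changes below 0, between -0.21 and -0.02, and none passed at the adjusted threshold. P4ha3, a catalytic subunit outside the set, went the other way. It had 149 to 204 normalized counts in WT CSPG and 212 to 226 in KO CSPG, without overlap. Its log2 fold change was 0.26 (SE 0.09, adjusted p = 0.111 in limma's test), which did not pass either. P4hb had 2682, 2772, 2835 and 2631 normalized counts in WT CSPG replicates A to D and 2803, 2707, 2625 and 2653 in KO CSPG. The ranges of P4hb coincided almost wholly, and its log2 fold change was -0.02 (95% interval -0.09 to 0.05). P4ha1, a catalytic subunit, had 579, 541, 581 and 569 normalized counts in WT CSPG and 492, 492, 492 and 549 in KO CSPG. For P4ha1, 3 KO CSPG libraries lay below every WT CSPG library and replicate D lay among them (log2 fold change -0.17, SE 0.05, adjusted p = 0.0878). P4ha2, the other catalytic subunit in the set, had 87.8, 92.1, 95.04 and 83.6 in WT CSPG and 74.7, 83.9, 82.8 and 68.3 in KO CSPG (-0.21, SE 0.12, adjusted p = 0.383), so the groups overlapped only between 83.6 and 83.9.

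Plod2, the lysyl hydroxylase of collagen telopeptides, was chosen for description after its values were seen. It had 332, 344, 349 and 357 normalized counts in WT CSPG replicates A to D and 292, 324, 296 and 287 in KO CSPG, which did not overlap. Its log2 fold change of -0.21 (SE 0.06, 95% interval -0.33 to -0.08) had an adjusted p of 0.0723, which did not pass. Without KO CSPG replicate B the adjusted p was 0.047. The other lysyl hydroxylases, Plod1 and Plod3, had log2 fold changes of -0.02 and 0.03.

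Serpinh1, the collagen chaperone, had 801, 858, 851 and 862 normalized counts in WT CSPG replicates A to D and 829, 773, 763 and 758 in KO CSPG. Replicates B to D of KO CSPG lay below all WT CSPG libraries, and replicate A lay among them (-0.11, SE 0.04, adjusted p = 0.197). The prolyl 3-hydroxylase complex, which modifies a few prolines of each chain, had 4 genes found by name (P3h1, P3h3, P3h4 and Crtap). Their log2 fold changes ran from -0.14 to 0.08. P3h1 had no overlap between groups, with 166 to 177 normalized counts in WT CSPG and 148 to 163 in KO CSPG (-0.14, adjusted p = 0.437).

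Colgalt1 had 972, 914, 1025 and 934 normalized counts in WT CSPG replicates A to D and 1006, 931, 1006 and 1030 in KO CSPG (0.05, 95% interval -0.04 to 0.14). Its partner in glycosylation, Colgalt2, had a log2 fold change of 0.15 (adjusted p = 0.615). Neither galactosyltransferase differed beyond the spread between libraries. Exons of Colgalt1 overlap those of Unc13a on the other strand over 495 bases, and whether the counting used the strand is not given in the sources used here.

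Bmp1, the protease that removes the C-terminal propeptide of fibrillar collagens, had 681, 698, 807 and 678 normalized counts in WT CSPG replicates A to D and 691, 697, 714 and 684 in KO CSPG. Apart from the high WT CSPG replicate C, all libraries of Bmp1 lay between 678 and 714 (-0.04, adjusted p = 0.799). The 3 measured lysyl oxidases, which form the cross-links, had log2 fold changes of 0.34 (Lox), 0.16 (Loxl3) and -0.06 (Loxl1). Lox had 31.3, 30.3, 39.8 and 49.9 normalized counts in WT CSPG replicates A to D and 46.5, 60.6, 42.9 and 40.8 in KO CSPG, with overlapping groups (SE 0.18, adjusted p = 0.371).

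**Figure D3:**
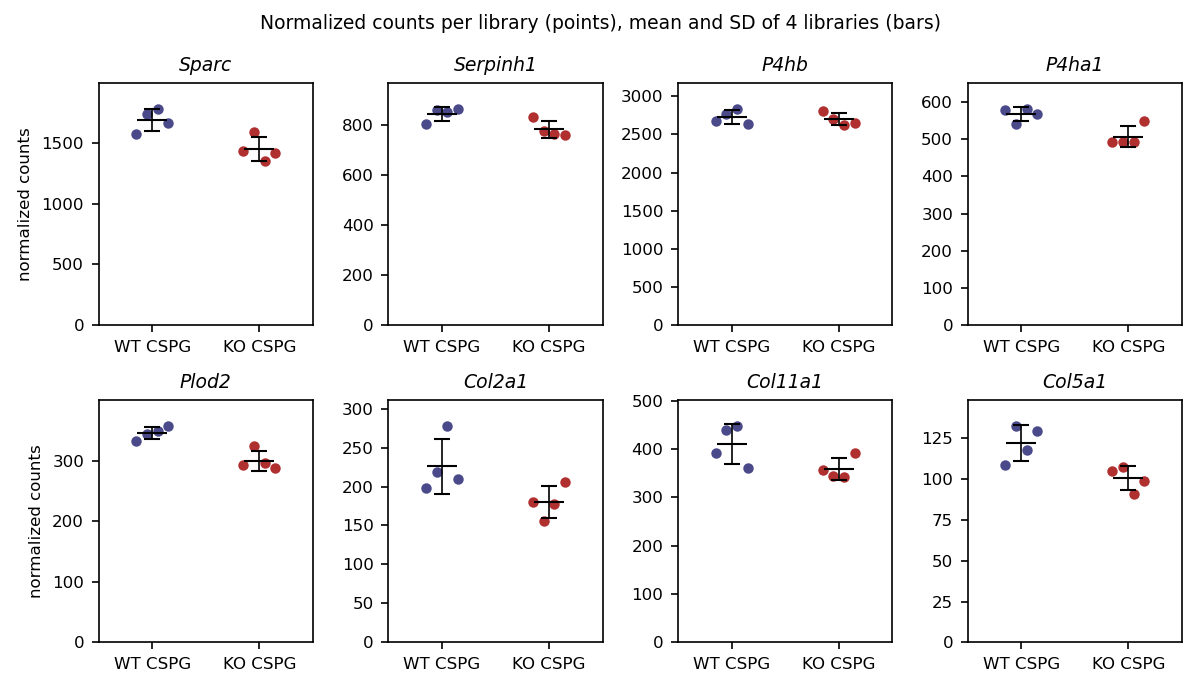
Normalized counts of 5 modifying genes and 3 fibrillar collagens in WT CSPG (blue) and KO CSPG (red), each axis starting at 0, with a point for each library in the order A to D and the mean and SD of 4 libraries in black. Plod2 and Col5a1 show no overlap between the groups, while Sparc, P4ha1 and Serpinh1 each have a KO CSPG library that reaches into the WT CSPG range.

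Fibrillar collagens form the banded fibrils of tissue matrix. Their 9 measured genes had log2 fold changes from -0.32 to 0.51 with a median of -0.07, 6 below 0 and 3 above. None passed at the adjusted threshold, and 3 had an unadjusted p under 0.05, all lower in KO CSPG. Col2a1, the chain of collagen II of cartilage, had 197, 219, 277 and 210 normalized counts in WT CSPG replicates A to D and 180, 156, 178 and 206 in KO CSPG. For Col2a1, KO CSPG replicate D reached into the WT CSPG range (-0.32, SE 0.10, adjusted p = 0.0928). Col5a1, a regulatory chain that starts fibrils, had 109, 132, 117 and 129 in WT CSPG and 105, 107, 91.0 and 98.6 in KO CSPG, without overlap (-0.28, SE 0.10, adjusted p = 0.161).

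Col11a1 encodes a chain related to Col5a1 and Col2a1 in cartilage fibrils. It ranged from 360 to 447 normalized counts in WT CSPG and from 342 to 392 in KO CSPG (-0.19, SE 0.07, adjusted p = 0.145). Col11a2, Col27a1 and Col5a2 had log2 fold changes of -0.17, -0.07 and -0.02. For Col5a2 the 95% interval was -0.17 to 0.14.

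Collagens I and III had the largest positive log2 fold changes among the fibrillar genes and the largest spread. Col1a1 (chr11:94936224-94953042) had 126, 147, 25.2 and 124 normalized counts in WT CSPG replicates A to D and 124, 320, 35.8 and 171 in KO CSPG. Col1a2 (chr6:4504814-4541544), the partner chain in collagen I, had 126, 197, 33.9 and 153 in WT CSPG and 151, 297, 41.9 and 164 in KO CSPG. Col3a1 (chr1:45311538-45349706), the chain of collagen III, had 113, 122, 8.73 and 96.8 in WT CSPG and 125, 158, 23.5 and 72.0 in KO CSPG. In all 3 genes replicate C was the lowest library of each group, and KO CSPG replicate B was the highest library of its group. The log2 fold changes were 0.51 (SE 0.87, 95% interval -1.60 to 2.62) for Col1a1, 0.31 (SE 0.80) for Col1a2 and 0.36 (SE 1.05) for Col3a1, with adjusted p values of 0.849, 0.904 and 0.916. Without WT CSPG replicate C they were -0.08, -0.23 and -0.52, so 1 library set the direction, and without KO CSPG replicate B that of Col1a2 was -0.07. With both C libraries left out they were 0.51 (SE 0.39), 0.32 (SE 0.33) and 0.03 (SE 0.27), and none of the 3 passed.

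Few reads lay on these genes in replicate C. Over all genes of the table the C libraries held 11174615 reads in WT CSPG, the most of that group, and 10541445 in KO CSPG, the fewest. The values of Col3a1 there corresponded to 9 reads in WT CSPG and 23 in KO CSPG, beside 95 to 113 and 76 to 169 in the other replicates. The mean of replicates A, B and D was 12.7 times the value of C for Col3a1 in WT CSPG and 5.03 times in KO CSPG. The same ratio was 5.26 and 5.73 for Col1a1 and 4.68 and 4.87 for Col1a2, so the drop in C was of like size in both genotypes for the collagen I chains.

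The spread within groups was measured for every gene as the pooled SD on the log2 scale. It was 1.51 for Col3a1, 1.25 for Col1a1 and 1.15 for Col1a2, against a median of 0.0830 over all genes. These genes ranked 2, 3 and 4 of 12012, behind Ttr (transthyretin, the choroid plexus carrier protein, 2.98) and ahead of Fibcd1 and Igf2. Collagens varied more than modifying genes, with a median SD of 0.190 against 0.0877. Of the 41 genes, 10 (24.4%) exceeded the 95th percentile of all genes, 0.229. Many collagens had low values, at which the SD of all genes is also higher.

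**Figure D4:**
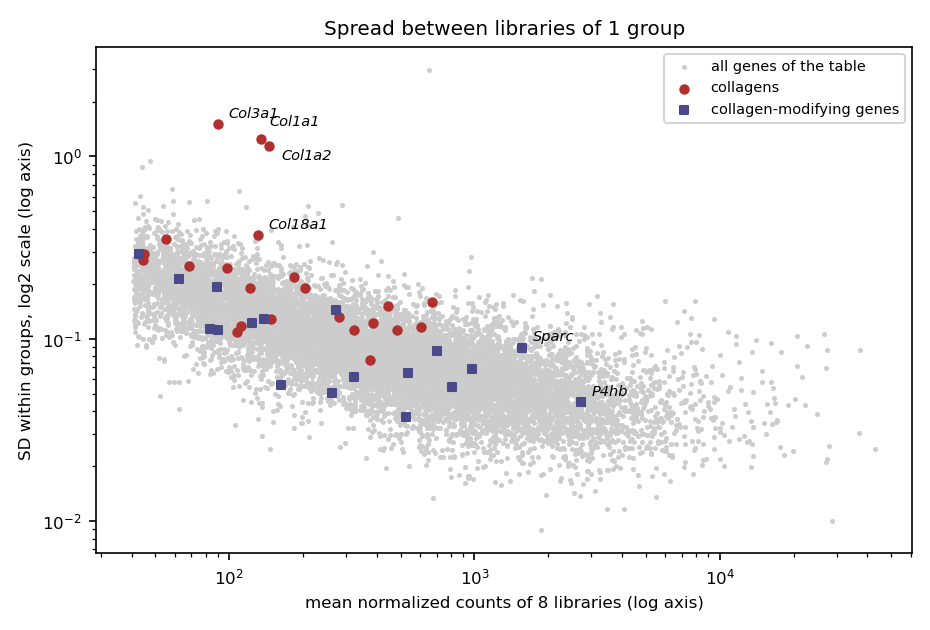
Within-group SD on the log2 scale against the mean normalized counts of the 8 libraries (both axes log) for all genes (grey), collagens (red circles) and modifying genes (blue squares). Col3a1, Col1a1 and Col1a2 stand far above genes of the same level, at 1.51, 1.25 and 1.15, while Sparc and P4hb lie within the grey cloud.

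Replicate C was the lowest library in both genotypes for 8 of 23 collagens (34.8%): Col1a1, Col1a2, Col3a1, Col4a1, Col4a2, Col6a1, Col18a1 and Col23a1. This held for 0 of 18 modifying genes and for 7.41% of all genes. The labels do not say whether libraries of the same letter were prepared together. Over all genes the deviations of the C libraries from their group means correlated at 0.27. The size of the drop differed between the genes. The mean of A, B and D over C was 1.51 in WT CSPG and 1.75 in KO CSPG for Col18a1, and 1.16 and 1.27 for Col4a1. Summed over collagens I and III, the libraries had 366, 467, 67.9 and 374 normalized counts in WT CSPG and 400, 775, 101 and 407 in KO CSPG.

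Markers of cell types that make these collagens were read in the same libraries. Of 19 fibroblast markers, 8 had a value (Bgn, Fbln1, Fbln2, Fn1, Igf2, Islr, Nov and Pdgfra), while Dcn, Lum, Ogn, Aldh1a2, Foxc1 and Twist1 were among the 11 without a value. The 8 markers summed to 1700 to 2065 normalized counts in WT CSPG and 1842 to 2238 in KO CSPG, and 0 of 8 passed. At an unadjusted p under 0.05 (limma) there were 5 of the 8 (62.5%, against 16.2% of all genes). Of these, 3 were higher in KO CSPG (Bgn, Islr and Pdgfra) and 2 were lower (Fbln1 and Fn1). Igf2 had 34.5, 61.7, 23.3 and 105 in WT CSPG replicates A to D and 39.8, 53.1, 16.4 and 18.01 in KO CSPG, so it too was lowest in replicate C of each group. This held for 2 of the 8 fibroblast markers, Igf2 and Pdgfra, and not for the other 6. Pdgfra is also on the list of oligodendrocyte lineage markers. Of that list, only Pdgfra, Gpr17 and Sox10 were lowest in replicate C of each group. Mural cell markers (5 of 13 with a value) summed to 551 to 667 in WT CSPG and 650 to 789 in KO CSPG, and endothelial markers (2 of 14) to 152 to 186 and 142 to 185. Choroid plexus markers (3 of 10) summed to 162 to 3999 in WT CSPG and 209 to 527 in KO CSPG. Of these 3, only Ttr was lowest in replicate C of each group, at 11.6 and 5.11. The same held for 1 of the 5 mural cell markers (Pdgfrb) and 1 of the 2 endothelial markers (Kdr). The part of these cell types in the collagen values was not tested.

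**Figure D5:**
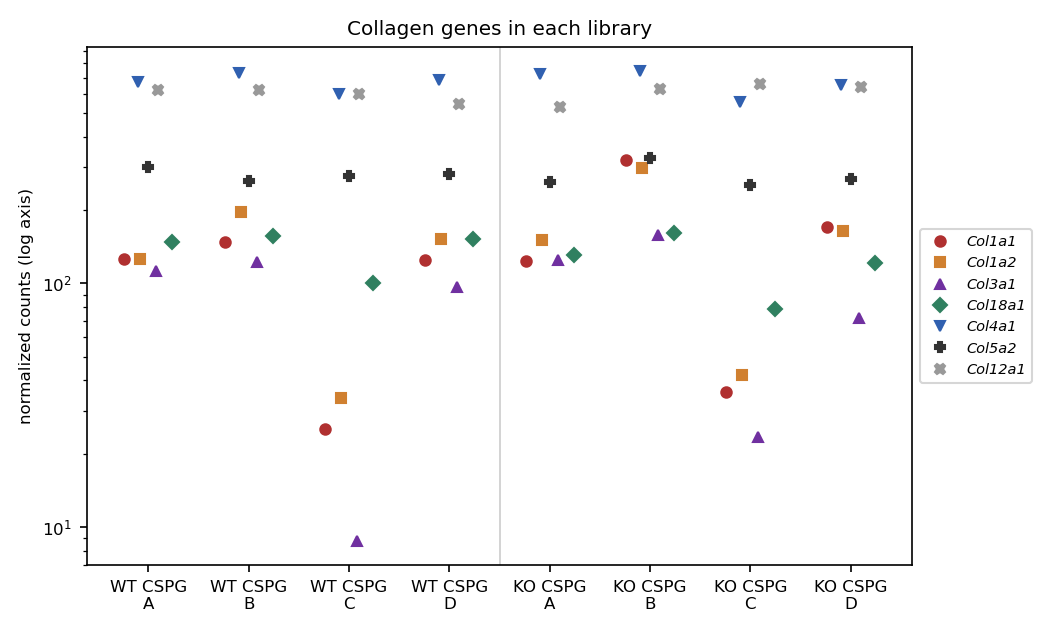
Normalized counts (log axis) of 7 collagen genes in each of the 8 libraries, with WT CSPG on the left and KO CSPG on the right. In replicate C of both groups Col1a1, Col1a2 and Col3a1 fall to between 8.73 and 41.9, Col18a1 is lower to a smaller degree, and Col5a2 and Col12a1 stay near the other replicates.

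Collagen IV forms the network of basement membranes. Its 4 measured genes had log2 fold changes from -0.18 to -0.01, all below 0 in limma's fit, and none passed or had an unadjusted p under 0.05. Upper-quartile scaling turned Col4a1 to 0.00. Col4a1 had 671, 729, 599 and 686 normalized counts in WT CSPG replicates A to D and 722, 748, 556 and 649 in KO CSPG (95% interval -0.22 to 0.20), and the ranges overlapped widely. Col4a2 had 484, 497, 415 and 463 in WT CSPG and 453, 437, 350 and 456 in KO CSPG (-0.14, SE 0.08, adjusted p = 0.430). The pair lies head to head on chromosome 8, Col4a1 at chr8:11198423-11312826 on the minus strand and Col4a2 at chr8:11312805-11449287 on the plus strand, with 22 bases shared. Col4a5 and Col4a6 form a like pair on chromosome X with 1308 bases between them. Col4a5 had 390, 404, 371 and 395 normalized counts in WT CSPG and 344, 396, 362 and 345 in KO CSPG (-0.11, SE 0.06, adjusted p = 0.385), and Col4a6 had a log2 fold change of -0.18 (adjusted p = 0.502).

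Chains that assemble in the same molecule were compared as a ratio of reads in each library. The pairs were added after the data had been seen. Col4a1 over Col4a2 was 1.44 ± 0.0419 for WT CSPG and 1.58 ± 0.118 for KO CSPG (SD, n = 4 each, exact two-sided permutation p = 0.114). Col1a1 over Col1a2 was 0.826 ± 0.120 and 0.947 ± 0.129 (exact p = 0.171), with every library between 0.743 and 1.08 although the genes themselves varied by much more. Col5a1 over Col5a2 was 0.438 ± 0.0606 and 0.363 ± 0.0301 (exact p = 0.0857), and Col11a1 over Col11a2 was 3.60 ± 0.264 and 3.55 ± 0.285 (exact p = 0.83). No pair passed after Benjamini-Hochberg adjustment of these exact permutation tests over the 4 pairs (smallest adjusted value 0.229). With 4 against 4 libraries an exact test cannot go below p = 0.0286. After adjustment over the 4 pairs, 1 pair alone could therefore not pass under 0.05 however far its groups lay apart. These tests cannot show that the ratios were equal.

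The collagens that associate with fibrils (FACIT) had 4 measured genes with a median log2 fold change of 0.07. Col9a3 had 456, 517, 473 and 564 normalized counts in WT CSPG replicates A to D and 480, 436, 485 and 442 in KO CSPG (-0.12, SE 0.06, adjusted p = 0.350). Exons of Col9a3 and Tcfl5 overlap over 234 bases on opposite strands. Col16a1 had 280, 327, 301 and 336 in WT CSPG and 330, 332, 308 and 366 in KO CSPG (0.10, SE 0.07, adjusted p = 0.512), with groups that overlapped. Col19a1 ranged from 93.1 to 123 in WT CSPG and from 113 to 159 in KO CSPG (0.28, adjusted p = 0.192), and Col12a1 had a log2 fold change of 0.04 (SE 0.06).

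The multiplexins, collagens of basement membrane zones that carry glycosaminoglycan chains, gave values of opposite sign. Col15a1 had 32.4, 36.8, 33.9 and 52.0 normalized counts in WT CSPG replicates A to D and 62.1, 42.0, 46.0 and 50.2 in KO CSPG (0.37, SE 0.18, adjusted p = 0.295). Col18a1, the source of endostatin, had 148, 157, 101 and 152 in WT CSPG and 131, 160, 78.7 and 121 in KO CSPG (-0.21, SE 0.23, adjusted p = 0.752). Neither passed at the adjusted threshold, and Col15a1 had a 95% interval above 0 (0.01 to 0.73). The transmembrane collagens Col25a1 and Col23a1 had log2 fold changes of 0.11 and 0.15, Col26a1 had 0.07 and Col6a1, the only measured chain of collagen VI, had 0.09, all with adjusted p values of at least 0.644.

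Other genes of the pathway were read from the same fit. Of the collagen receptors, 8 of 13 had a value, and 0 passed, with 2 at an unadjusted p under 0.05 and a median log2 fold change of -0.03. All 20 genes of folding and secretion had a value, and 0 passed, with 5 at an unadjusted p under 0.05 and a median of 0.00. For processing, fibril assembly and turnover 11 of 25 genes had a value, and 0 passed, with 4 at an unadjusted p under 0.05 and a median of -0.05. TGF-beta signalling, a known inducer of collagen genes, had 14 genes with a value, of which 1 passed. This was Tgfb2, a TGF-beta ligand, with 1215 ± 107 normalized counts in WT CSPG and 976 ± 60.4 in KO CSPG (SD, n = 4 each), a log2 fold change of -0.31 (SE 0.06, adjusted p = 0.00691). It was the only one of the 14 genes at an unadjusted p under 0.05 (7.14%, against 16.2% of the table). The median over the 14 genes was -0.09, with 12 of them below 0, against 49.9% of all genes.

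Neuron markers, the labelled cell type, summed to 89535 to 94775 normalized counts in WT CSPG and 89521 to 92337 in KO CSPG. Of these 15 genes, Prox1, a dentate granule cell factor, passed as higher (0.29, adjusted p = 0.00918) and Neurod6, a pyramidal cell factor, as lower (-0.19, adjusted p = 0.0118). Summed over all 23 collagens, libraries had 4862 to 5641 normalized counts in WT CSPG and 4611 to 5770 in KO CSPG. The 18 modifying genes summed to 9356 to 10084 in WT CSPG and 9147 to 9450 in KO CSPG, which overlapped between 9356 and 9450. The mean of this sum was 9695 in WT CSPG and 9280 in KO CSPG, of which Sparc made up 1687 and 1447. Of the 18 genes, 7 had a log2 fold change above 0 and 11 below, so the sum does not describe each gene.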

How the data were processed

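Poly-A RNA of the cultures was sequenced as 50-base single reads. Per the labels, genes were counted on mm10 and compared with DESeq2, and the aligner, the counting program and its use of strand are not given in the sources used here. The authors deposited a normalized signal for each gene and library, the reads divided by a size factor (normalized counts), with 0 columns left unused. Values were whole multiples of 1 step per library (largest deviation 5.82e-11 of a read), which gave the reads and the depth. The lowest gene mean in the table is 40.7, so genes of lower level are not in it. The table also holds the authors' mean, log2 fold change with its standard error, Wald statistic, p-value and adjusted p-value for this comparison, which were not used.

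Values were taken as log2(value + 1) and fitted with limma (version 3.58.1, R 4.3.3) with a variance trend and a robust prior on all 12012 genes of the 8 libraries, with Benjamini-Hochberg adjustment over all genes and a threshold of 0.05. Fold changes on this scale understate changes of low genes. In simulated data of 12012 genes the test recovered 81 of 100 genes changed by 0.5 on the log2 scale and 98 of 100 changed by 1, and called 3 of 11812 unchanged genes. The changed genes were drawn at random from the whole table, with independent noise in each library. These rates therefore do not describe the collagens, whose median SD within groups was 0.190 against 0.0830 over all genes. Models for counts had been planned and were not run, because the deposited values are normalized and lack low genes. The replicates were stated to be biological, and the labels do not tie them to animals. The deviations of same-lettered libraries from their group means correlated at -0.07, 0.0956, 0.27 and -0.01 for A to D. The C libraries deviated together and the others did not reach the 0.1 required of every letter, so the letters were not taken as pairs. All 41 gene identifiers were found in GENCODE M21, 39 with the same coordinates, and coordinates are those of the table counted from 1.

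The genes, gene lists and tests were chosen with earlier results of these data known. Values in every library are given for genes with an adjusted p under 0.05, the 5 largest log2 fold changes in each direction and the 5 collagens and 5 modifying genes of highest level per kilobase, 19 genes in all, and exceptions are named. Sequences came from RefSeq (GRCm38.p6). The alternatives covered the pseudocount, a filter on the mean, scaling, the variance prior, a block on the replicate letter, the Y-linked sum and leaving out libraries.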

Additional observations from a re-analysis of the deposited data

Results flagged for a closer look

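Each of the 41 genes was examined in each group of 4 libraries for a library far from the rest, by Dixon's criterion at the 95% level. Of 82 groups, 4 held such a library, and chance gives about 1 in 20, or 4.1. Col18a1 had 101 normalized counts in WT CSPG replicate C, against 148 to 157 in the other WT CSPG libraries. Bmp1 had 807 in WT CSPG replicate C, against 678 to 698. P4ha1 had 549 in KO CSPG replicate D, against 492 in each of the others, and without that library its adjusted p was 0.043 (limma). Plod3, a lysyl hydroxylase, had 517 in KO CSPG replicate B, against 534 to 537.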

How the results depend on the processing

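The number of genes called (346) moved to 80 without a variance trend, 2 with the Y-linked sum as a covariate and 127 with both C libraries left out (chosen after seeing the data). Under the same settings, Sparc lost its call and 0 of the 41 genes passed (limma; 12, 5 and 5 of the 41 at an unadjusted p under 0.05). Leaving out 1 library gave 186 (without KO CSPG replicate A) to 576 genes (without WT CSPG replicate D) and 1 to 2 of the 41, with Sparc in each and Col11a1, Plod2 or P4ha1 added in 3 of these fits. The replicate block gave 429 genes and changed no call among the 41, with an adjusted p of 0.00347 for Sparc. It lowered the SE of the same log2 fold changes from 0.87 to 0.14 for Col1a1 (adjusted p = 0.0669), from 0.80 to 0.10 for Col1a2 (adjusted p = 0.106) and from 1.05 to 0.24 for Col3a1 (adjusted p = 0.533).

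Among the 19 genes given in every library, adjusting for the Y-linked sum reversed the sign of Col16a1 (-0.0920), Col1a1 (-2.42), Col1a2 (-2.66), Col2a1 (0.0575), Col3a1 (-2.18) and Lox (-0.26), none of them called. The SE in this fit was 2.91 for Col1a1, 2.61 for Col1a2 and 3.70 for Col3a1. Genotype explained 91.2% of the variance of the Y-linked sum, so these values are very imprecise. Without both C libraries Bmp1 (0.00980), Col4a1 (0.0217) and P4hb (0.0138) reversed, as did Col4a1 with upper-quartile scaling (0.00162). Over all 41 genes 14 reversed with the Y-linked sum, 7 without both C libraries and 1 with upper-quartile scaling. Over the fits without 1 library, reversals among the 19 genes were those of Bmp1 (from -0.0621 to 0.0217), Col1a1 (from -0.0792 to 1.10), Col1a2 (from -0.23 to 0.86), Col3a1 (from -0.52 to 0.91), Col4a1 (from -0.0673 to 0.0749) and P4hb (from -0.0361 to 0.000913). The causes were not tested. Pseudocounts of 0.1 and 10, a mean of at least 100 (30 of the 41 genes left) and a prior that is not robust kept Sparc as the only call. Models for counts and scaling by trimmed means were not run.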
